A study of Mus musculus with 9 samples.

Results

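The genes described here encode the receptors through which group 2 innate lymphoid cells (ILC2s) sense the alarmins IL-33, IL-25 and TSLP, together with the adaptors that carry the signal inside the cell. They were taken by name and comprise 5 receptor genes (Il1rl1, Il1rap, Il17rb, Il17ra and Crlf2) and 5 adaptor genes (Myd88, Irak1, Irak2, Irak4 and Traf6), 10 of the 23234 genes in each expression table. All 10 were listed in every table, and all 10 reached the minimum for testing, which was an average of 1 FPKM across libraries and left 11014 genes. FPKM, fragments per kilobase of transcript scaled to the mapped fragments of the library, is a level corrected for transcript length, so levels of different genes can be set side by side.

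The ILC2s came from the fat-associated lymphoid clusters, small lymphoid structures in adipose tissue, of mice of the C57BL/6 strain, all wild-type. The culture lasted 48 h and contained IL-33 and IFN-γ (3 libraries), IL-33 and IL-27 (3 libraries) or IL-33 alone (3 libraries), each cytokine at 10 ng/ml. IFN-γ is the type II interferon, IL-27 belongs to the IL-12 family of cytokines, and both act through STAT transcription factors. All 3 groups therefore received IL-33, the ligand of one of the receptors described, and no group without IL-33 was analysed here. The labels do not give the age or sex of the mice, whether mice were pooled, or whether replicates were separate cultures, so the spread that the p-values rest on may be technical in part.

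IL-33, IL-25 and TSLP are released by epithelial and stromal cells on damage or infection and drive ILC2s to make type 2 cytokines such as IL-5 and IL-13. IL-33 binds ST2, the product of Il1rl1, which pairs with the shared accessory chain encoded by Il1rap and recruits Myd88 and the Irak kinases to activate Traf6 and NF-κB. IL-25 binds a pair of chains encoded by Il17rb and Il17ra that signals through Act1 (Traf3ip2) and Traf6, while TSLP binds the chain encoded by Crlf2, which pairs with the IL-7 receptor chain Il7r and signals through Jak kinases and STAT5.

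The libraries appeared shallow. Fragment totals were not in the tables, but the spacing of the low values placed each library between about 880000 and 981000 fragments. At that depth 1 fragment in 2 kb of transcript equals 0.51 to 0.568 FPKM. The spacing was sought only within a fixed window of values, so a depth far from this range could not have been returned. All 12 fixed ILC2 markers were present in every library, with Gata3, a transcription factor ILC2s require, at 161 to 348 FPKM. Among markers of other cells, the summed fibroblast list was 36.2 to 86.5 FPKM in the libraries numbered 3 of the 3 groups and 2.92 to 17.6 FPKM in the other 6. Lum of this list went the other way, with 4.86 to 16.8 FPKM in the libraries numbered 1 and 1.0 to 3.2 FPKM in those numbered 3. In the same 3 libraries the T cell list summed to 82.0 to 105 FPKM, against 33.97 to 48.96 FPKM in the other 6, with nearly all of it Cd3g, and the mast cell and basophil list to 5.7 to 11.5 FPKM, against 0 to 2.51 FPKM. Cd4 was listed at 0 in all 9 libraries. So were the macrophage markers Csf1r and Mrc1 and the mast cell and basophil markers Mcpt4, Cma1, Mcpt8 and Ms4a2. Foxp3 reached at most 0.6 FPKM. Other genes of these lists were present, with Cd68 of the macrophage list at 1.16 to 18.8 FPKM. In the mast cell and basophil list, Fcer1a reached 8.3 FPKM, Cpa3 2.3 FPKM and Tpsb2 2.2 FPKM. Of the B cell list, Cd79b had 20.3 to 83.9 FPKM, and the other 3 genes stayed below 1 FPKM. Libraries that carry the same number deviated together from their group means (r = 0.128 to 0.367 over the 9 pairs). Each comparison was therefore run without and with the replicate number as a block, called the unblocked and the blocked fit. The unblocked fit is the main one.

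No member passed the threshold, a limma adjusted p under 0.05 over all genes tested, in the unblocked fit of any of the 3 comparisons. With IFN-γ against IL-33 alone, 0 of 10 members were called where 2.91% of all genes tested were; with IL-27 against IL-33 alone it was 0 of 10 where 1.03% were, and with IFN-γ against IL-27 it was 0 of 10 where 0.0% were. At an unadjusted p under 0.05 the numbers were 2, 2 and 1 of 10, against 15.4%, 9.51% and 4.39% of all genes tested. In the blocked fit 3 members were called with IFN-γ against IL-33 alone, where 11.2% of all genes were: Il1rl1 was lower, and Il17rb and Crlf2 were higher. That fit called 0 of 10 with IL-27 against IL-33 alone, where 5.15% of genes were called, and Il1rl1 alone with IFN-γ against IL-27, where 0.182% were. The comparisons with IL-33 alone share its 3 libraries, so their values are given side by side.

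**Figure D1:**
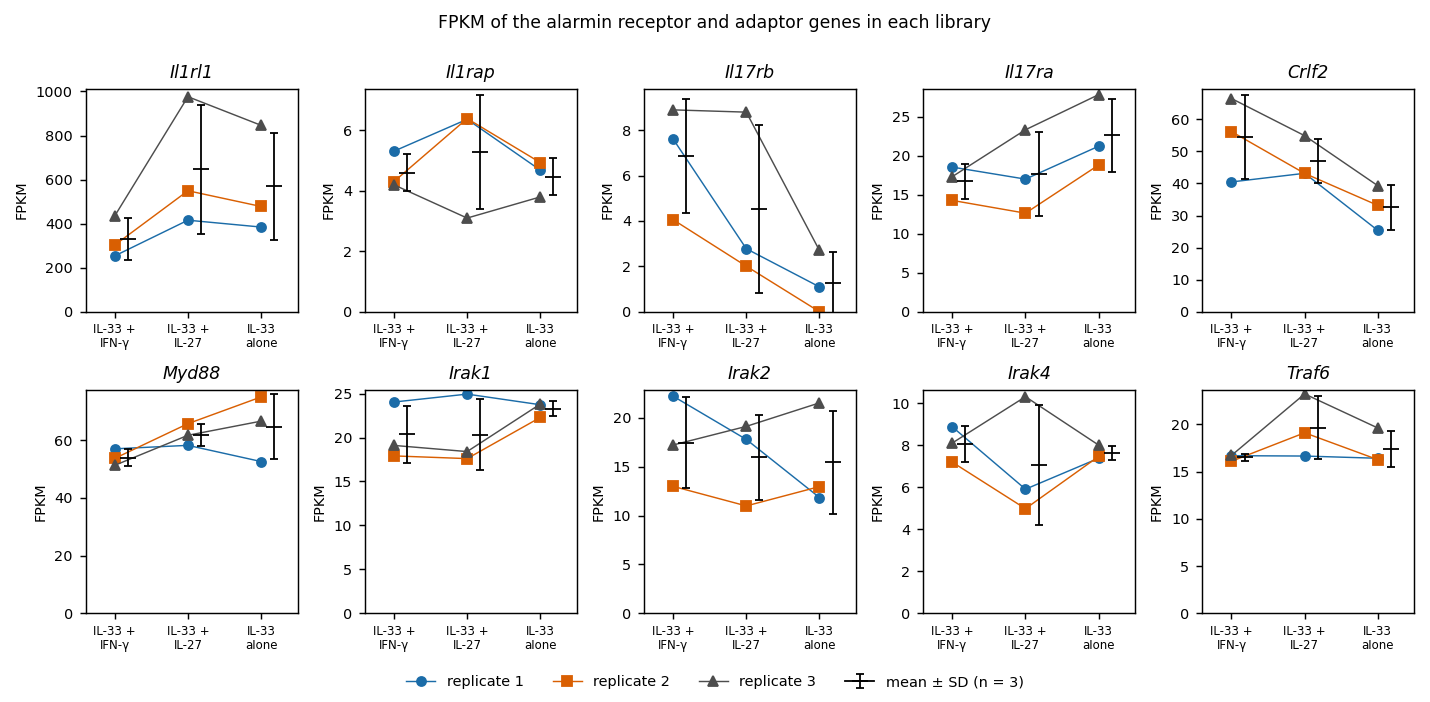
FPKM (vertical axes, each from 0) of the 5 receptor genes (top row) and 5 adaptor genes (bottom row) in each library, by culture group. Points are libraries, lines join libraries that carry the same number, and bars give the mean ± SD of 3 libraries (the lower bar of Il17rb in IL-33 alone is cut at 0). Il1rl1 is lowest in the IFN-γ library of every number, and Il17rb and Crlf2 are lowest in the IL-33 library of every number.

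Il1rl1 was the most abundant of the 10. Its mean level over all libraries exceeded that of 98.3% of the genes tested, followed by Myd88 (84.8%) and Crlf2 (80.1%), while Irak4 (32.7%), Il1rap (22.3%) and Il17rb (19.6%) were the lowest. In cells given IL-33 alone the order was Il1rl1, Myd88, Crlf2, then Irak1, Il17ra, Traf6 and Irak2, then Irak4, Il1rap and Il17rb. Within the run from Irak1 to Irak2 the ranges of neighbouring genes overlapped, and each other step in that order was free of overlap. With IFN-γ, Crlf2 at 54.4 ± 13.1 FPKM stood level with Myd88 at 54.0 ± 2.87 FPKM (SD, n = 3 each), their ranges overlapping, and Irak4, Il17rb and Il1rap overlapped from one to the next. With IL-27 the order of the upper 4 genes was that of IL-33 alone, and Irak4, Il1rap and Il17rb overlapped from one to the next. The order of receptor chains for each ligand was the same in every library for IL-33 and IL-25: Il1rl1 exceeded Il1rap and Il17ra exceeded Il17rb.

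Promoter sequences are shown for the 3 members that the blocked fit called and for Myd88, the member whose promoter held STAT and interferon response motifs. RefSeq (GRCm38.p6) gave a promoter for 9 of the 10 members, Il17ra having no entry in the table. Each sequence is the 250 bases upstream of a start site, 5′ to 3′ on the gene's strand, with matches in capitals and positions counted back from -1, the base before the start. The motifs, searched on both strands, were TTCNNNGAA (STAT, in 7.02% of the 32851 promoters of that length), a pair of GAAA units with 2 bases between them (interferon response, 2.98%), AGATAA (for GATA factors, 9.99%) and GGGA followed after 4 bases by CC (NF-κB, 17.6%). Il1rl1 has 2 annotated starts, at chr1:40429320-40429569 and chr1:40439379-40439628 (plus strand), Il17rb 1 at chr14:30008897-30009146 (minus strand), Crlf2 1 at chr5:109558994-109559243 (minus strand) and Myd88 1 at chr9:119340019-119340268 (minus strand).
Il1rl1 upstream start: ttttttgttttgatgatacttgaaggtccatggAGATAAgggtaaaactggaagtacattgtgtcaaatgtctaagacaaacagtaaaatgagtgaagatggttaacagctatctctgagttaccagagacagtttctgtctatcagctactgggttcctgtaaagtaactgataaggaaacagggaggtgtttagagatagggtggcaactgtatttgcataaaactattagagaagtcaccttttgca
Il1rl1 downstream start: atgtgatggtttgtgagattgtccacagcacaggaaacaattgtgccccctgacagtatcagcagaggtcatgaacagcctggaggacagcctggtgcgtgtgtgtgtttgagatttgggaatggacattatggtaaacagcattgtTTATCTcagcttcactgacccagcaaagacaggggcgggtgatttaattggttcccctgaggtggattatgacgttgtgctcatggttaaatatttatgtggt
Il17rb: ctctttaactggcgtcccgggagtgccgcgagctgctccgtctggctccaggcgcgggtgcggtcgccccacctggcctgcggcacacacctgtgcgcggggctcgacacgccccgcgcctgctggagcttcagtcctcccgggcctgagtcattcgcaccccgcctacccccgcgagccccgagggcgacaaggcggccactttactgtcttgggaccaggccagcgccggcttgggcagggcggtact
Crlf2: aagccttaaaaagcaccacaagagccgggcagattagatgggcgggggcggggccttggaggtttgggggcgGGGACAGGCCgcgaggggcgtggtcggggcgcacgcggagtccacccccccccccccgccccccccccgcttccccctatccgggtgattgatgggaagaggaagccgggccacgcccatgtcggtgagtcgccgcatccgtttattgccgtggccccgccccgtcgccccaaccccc
Myd88: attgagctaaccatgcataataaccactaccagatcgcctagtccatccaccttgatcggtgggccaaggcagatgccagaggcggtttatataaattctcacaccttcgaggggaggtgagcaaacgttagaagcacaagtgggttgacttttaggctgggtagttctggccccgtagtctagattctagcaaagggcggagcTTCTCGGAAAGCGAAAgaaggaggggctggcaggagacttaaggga
Each Il1rl1 window held a GATA match, AGATAA from -217 in the upstream and its reverse complement TTATCT from -103 in the downstream window. The Il17rb window held none of the 4 motifs, and the Crlf2 window held an NF-κB match, GGGACAGGCC, from -178. In Myd88 the STAT match TTCTCGGAA from -46 overlapped the interferon response match GAAAGCGAAA from -40. Il1rap, Irak1 and Traf6 each held an NF-κB match, and Irak2 and Irak4 held no match. A match describes letters only, and neither binding nor start site use was measured.

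Among the receptors for IL-33, Il1rl1 (chromosome 1, 40486415 to 40522260, plus strand, mm9), the gene for the ligand-binding chain ST2, was lower with IFN-γ than with IL-33 alone in every same-number pair. It had 253, 303 and 435 FPKM with IFN-γ in replicates 1, 2 and 3, against 384, 478 and 846 FPKM with IL-33 alone. The groups overlapped, because replicate 3 with IFN-γ exceeded replicate 1 with IL-33 alone, but within each number the IFN-γ library was the lower, at 0.660, 0.634 and 0.514 times its partner. The log2 fold change was -0.74 (SE 0.37; 95% interval -1.57 to 0.09; limma adjusted p = 0.387 unblocked). With the block the SE was 0.10, the interval -0.98 to -0.50 and the limma adjusted p 0.00486. That blocked call held with each of the 9 libraries left out (limma adjusted p 0.0100 to 0.0291). Over the same omissions the unblocked log2 fold change ranged from -0.98 to -0.41 (limma adjusted p 0.311 to 0.627), the value nearest to 0 being that without the third IL-33 library. Among replicates 1 and 2 only the blocked log2 fold change was -0.63 (limma adjusted p = 0.0482).

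IL-27 gave Il1rl1 levels of 415, 549 and 976 FPKM in replicates 1, 2 and 3, each slightly above the IL-33 library of its number, at 1.08, 1.15 and 1.15 times. That log2 fold change of 0.17 was not called (95% interval -0.66 to 1.00, limma adjusted p = 0.936 unblocked and 0.413 blocked). Against IL-27, Il1rl1 with IFN-γ was at 0.610, 0.551 and 0.446 times the same-number library, a log2 fold change of -0.91 (95% interval -1.74 to -0.08). The limma adjusted p was 1 unblocked and 0.0361 blocked, and the blocked call was lost with each of the 9 libraries left out (0.0701 to 0.241).

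Several other values are set beside those of Il1rl1. Its replicate 3 library was the highest in all 3 groups, at 1.57, 2.02 and 1.96 times the mean of the other 2 libraries with IFN-γ, IL-27 and IL-33 alone, as were those of Il17rb, Crlf2 and Traf6. That was so for 15.8% of all genes tested, and the part that the fibroblast and other transcripts of these libraries play in it was not tested. The summed ILC2 list was 5850 to 9522 FPKM with IFN-γ, 12085 to 12422 FPKM with IL-27 and 14170 to 22057 FPKM with IL-33 alone. Most of that sum was Il5 and Il13. Of the 12 genes, 3 were lower with IFN-γ than with IL-33 alone without overlap (Il5, Il13 and Il2ra) and 1 was higher (Areg). The other 8 overlapped, Gata3 among them. With IL-27 against IL-33 alone, 2 were lower without overlap (Il5 and Il2ra), 1 was higher (Areg) and 9 overlapped. Of all genes tested, 20.6% with IFN-γ and 14.0% with IL-27 were free of overlap. Il2ra, the IL-2 receptor alpha chain, had 314.5 to 414 FPKM with IFN-γ, 413 to 576 FPKM with IL-27 and 877 to 1018 FPKM with IL-33 alone. Areg, which encodes the growth factor amphiregulin, had 216 to 777 FPKM with IFN-γ, 425 to 557 FPKM with IL-27 and 62.7 to 104 FPKM with IL-33 alone. In such bulk libraries, fewer cells that express a gene and less RNA of it in each cell cannot be told apart. The tables give 1 value per gene, so membrane-bound and soluble ST2, which arise from the same gene, were not separated.

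Il1rap (chromosome 16, 26581790 to 26730203, plus strand), which encodes the signalling partner of ST2 and of other IL-1 family receptors, was low in all groups. It had 5.31, 4.31 and 4.2 FPKM with IFN-γ, 6.37, 6.39 and 3.1 FPKM with IL-27, and 4.69, 4.94 and 3.8 FPKM with IL-33 alone, in replicates 1, 2 and 3. The groups overlapped, and replicate 3 was the lowest library in each of them. The log2 fold change was 0.03 with IFN-γ (95% interval -0.61 to 0.68, limma adjusted p = 0.977) and 0.15 with IL-27 (95% interval -0.49 to 0.80, limma adjusted p = 0.924), both against IL-33 alone.

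The level of Il1rl1 relative to its partner chain was large throughout. It was 47.7, 70.3 and 104 times the Il1rap level with IFN-γ, 65.2, 85.9 and 315 times with IL-27, and 82.0, 96.8 and 223 times with IL-33 alone, in replicates 1, 2 and 3. In each number the IFN-γ library had the smallest of the 3 ratios, and replicate 3 had the largest ratio of each group. Relative to Crlf2, Il1rl1 was 5.39 to 6.54 times as high with IFN-γ, 9.63 to 17.8 times with IL-27 and 14.4 to 21.5 times with IL-33 alone. This second ratio did not overlap between IFN-γ and either other group. No test was run on the ratios, and both of the genes in the second were called in the blocked fit of IFN-γ against IL-33 alone.

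The IL-25 receptor gene Il17rb (chromosome 14, 30809327 to 30822082, minus strand), whose product binds IL-25, was the lowest receptor gene with IL-33 alone and was higher with IFN-γ. It had 7.62, 4.06 and 8.9 FPKM with IFN-γ, against 1.10, 0 and 2.7 FPKM with IL-33 alone, in replicates 1, 2 and 3. No IFN-γ library fell within the range of IL-33 alone. The log2 fold change was 1.93 on the scale of log2(FPKM + 1), which understates the change of low genes (SE 0.57; 95% interval 0.66 to 3.21; limma adjusted p = 0.128 unblocked). With the block the interval was 1.24 to 2.63 and the limma adjusted p 0.00680. This call held with each of the 9 libraries left out (limma adjusted p 0.0117 to 0.0445) and among replicates 1 and 2 only (log2 fold change 2.19, limma adjusted p = 0.0478). Unblocked, the omissions gave 1.44 to 2.38 (limma adjusted p 0.0810 to 0.329), and a pseudocount of 0.1 in place of 1 gave 3.25 (limma adjusted p = 0.181).

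With IL-27, Il17rb had 2.78, 2.01 and 8.8 FPKM in replicates 1, 2 and 3, each above the IL-33 library of its number, although replicates 1 and 2 lay within or close to the range of IL-33 alone. The log2 fold change of 1.28 was not called (95% interval 0.01 to 2.56, limma adjusted p = 0.522 unblocked and 0.0538 blocked). It was 2.44 with a pseudocount of 0.1 (limma adjusted p = 0.512 unblocked) and 0.77 without the third IL-27 library. IFN-γ against IL-27 gave 0.65 (95% interval -0.62 to 1.93, limma adjusted p = 1 unblocked and 0.467 blocked). These levels rest on few fragments. For its 2061-base transcript they correspond to about 14, 8 and 16 fragments with IFN-γ, 5, 4 and 16 with IL-27, and 2, 0 and 5 with IL-33 alone, so a level of 0 at this depth does not show absence.

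Il17ra (chromosome 6, 120413215 to 120433745, plus strand), the chain shared by receptors of the IL-17 family, had 18.5, 14.3 and 17.3 FPKM with IFN-γ, 17.0, 12.6 and 23.3 FPKM with IL-27, and 21.2, 18.8 and 27.8 FPKM with IL-33 alone, in replicates 1, 2 and 3. All 3 IFN-γ libraries lay just below the range of IL-33 alone, and the IL-27 libraries overlapped it. The log2 fold change was -0.40 with IFN-γ (95% interval -0.97 to 0.16 and limma adjusted p = 0.505 unblocked, -0.78 to -0.03 and 0.155 blocked) and -0.36 with IL-27 (95% interval -0.93 to 0.20 and limma adjusted p = 0.730 unblocked, -0.74 to 0.01 and 0.261 blocked). In every same-number pair the library with IFN-γ or IL-27 was the lower, at 0.622 to 0.874 times for IFN-γ and 0.672 to 0.838 times for IL-27. The log2 fold changes of the IL-25 receptor chains differed in sign in both comparisons with IL-33 alone, but the difference between the chains was not tested.

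Crlf2 (chromosome 5, 109983730 to 109988012, minus strand), which encodes the TSLP-binding chain, was higher with either added cytokine than with IL-33 alone in every library. It had 40.5, 56.2 and 66.5 FPKM with IFN-γ, 43.2, 43.1 and 54.9 FPKM with IL-27, and 25.4, 33.2 and 39.3 FPKM with IL-33 alone, in replicates 1, 2 and 3. Neither group overlapped IL-33 alone, although the lowest IFN-γ library (replicate 1) was only just above the highest IL-33 library. The log2 fold change with IFN-γ was 0.71 (fold 1.64; SE 0.24; 95% interval 0.19 to 1.24; limma adjusted p = 0.175 unblocked and 0.0117 blocked), and the same-number ratios were 1.60, 1.69 and 1.69. That blocked call held with 6 of the 9 libraries left out and was lost without the first IL-33 library (limma adjusted p = 0.0537), and without IFN-γ library 2 (0.0673) or 3 (0.0504). Among replicates 1 and 2 only, it was also lost (log2 fold change 0.70, limma adjusted p = 0.107 blocked).

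For IL-27 the Crlf2 log2 fold change was 0.53 (fold 1.44; 95% interval 0.002 to 1.06; limma adjusted p = 0.522 unblocked and 0.0556 blocked), with same-number ratios of 1.30 to 1.70. IFN-γ against IL-27 gave 0.18 (95% interval -0.34 to 0.71, limma adjusted p = 1 unblocked and 0.633 blocked). Il7r, the chain that pairs with the Crlf2 product and also forms the IL-7 receptor, had 29.2, 21.3 and 40.3 FPKM with IFN-γ, 17.5, 24.8 and 66.6 FPKM with IL-27, and 38.2, 32.8 and 52.3 FPKM with IL-33 alone. Its groups overlapped, and its log2 fold changes of -0.45 with IFN-γ and -0.38 with IL-27 were not called (limma adjusted p = 0.699 and 0.867 unblocked, 0.331 and 0.490 blocked).

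Across the 10 members, 2 had higher and 1 had lower non-overlapping levels with IFN-γ than with IL-33 alone, where 20.6% of all genes tested were free of overlap. They were Il17rb, Crlf2 and Il17ra. With IL-27 against IL-33 alone only Crlf2 among the 10 was free of overlap, where 14.0% of genes were. Same-number pairs moved one way in 4 of 10 members with IFN-γ and 5 of 10 with IL-27, close to the 45.5% and 42.6% of all genes tested, and in 3 of 10 with IFN-γ against IL-27, where 33.6% did. The median log2 fold change of the members was -0.02 with IFN-γ and 0.10 with IL-27, beside 0.03 and 0.01 over all genes tested.

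**Figure D2:**
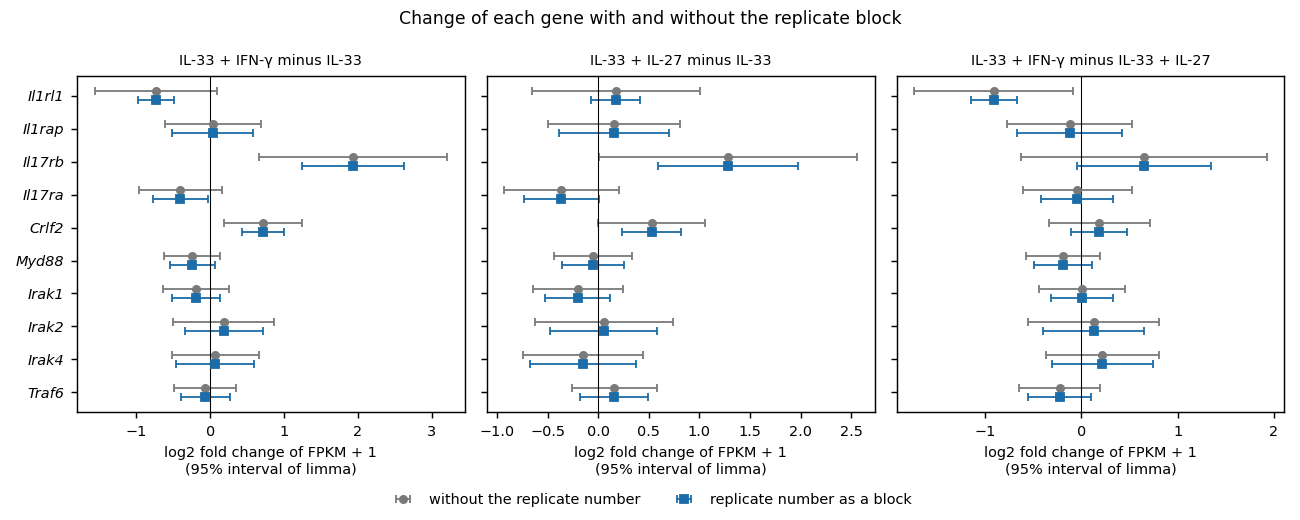
Log2 fold change of FPKM + 1 (horizontal axis) of each member in the 3 comparisons, with limma's 95% interval from the unblocked fit (grey circles) and the blocked fit (blue squares). In the left panel Il1rl1 at -0.74 and Crlf2 and Il17rb at 0.71 and 1.93 have blocked intervals clear of 0, as has Il17ra at -0.40 (-0.78 to -0.03), which was not called, whereas those of the 5 adaptors and of Il1rap include 0.

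None of the adaptors was called in either fit of any comparison. Myd88 (chromosome 9, 119245052 to 119250529, minus strand), the adaptor that joins the IL-33 receptor to the Irak kinases, had 57.0, 53.7 and 51.3 FPKM with IFN-γ, 58.2, 65.7 and 61.7 FPKM with IL-27, and 52.6, 75.0 and 66.6 FPKM with IL-33 alone, in replicates 1, 2 and 3. The IFN-γ libraries all lay below the IL-27 libraries, and Myd88 was the single member without overlap in that comparison, where 9.53% of all genes tested did not overlap. The IFN-γ and IL-33 groups overlapped. Its log2 fold change was -0.24 with IFN-γ and -0.05 with IL-27 against IL-33 alone, and -0.19 with IFN-γ against IL-27 (95% intervals -0.63 to 0.14, -0.43 to 0.33 and -0.57 to 0.19; limma adjusted p = 0.559, 0.966 and 1).

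Irak4 (chromosome 15, 94374074 to 94412246, plus strand), the kinase that acts first in the Myd88 complex, had 8.87, 7.19 and 8.1 FPKM with IFN-γ, 5.91, 4.98 and 10.3 FPKM with IL-27, and 7.37, 7.46 and 8.0 FPKM with IL-33 alone. The IL-27 libraries were both the lowest and the highest of the 9. Irak1 (chromosome X, 71259253 to 71269257, minus strand), the kinase downstream of Irak4, had 24.0, 17.9 and 19.1 FPKM with IFN-γ, 24.9, 17.6 and 18.4 FPKM with IL-27, and 23.7, 22.3 and 23.8 FPKM with IL-33 alone. Replicates 2 and 3 were lower with either cytokine and replicate 1 was not. Their log2 fold changes against IL-33 alone lay between -0.20 and 0.07, with 95% intervals inside -0.74 to 0.66.

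Irak2 (chromosome 6, 113588461 to 113645003, plus strand), which sustains the signal after Irak1, varied more among libraries of 1 group than between groups. It had 22.2, 13.0 and 17.2 FPKM with IFN-γ, 17.8, 10.98 and 19.1 FPKM with IL-27, and 11.8, 13.0 and 21.5 FPKM with IL-33 alone, with overlap throughout. Traf6 (chromosome 2, 101518586 to 101541826, plus strand), the ubiquitin ligase on which the IL-33 and IL-25 pathways converge, had 16.7, 16.1 and 16.7 FPKM with IFN-γ, 16.6, 19.1 and 23.2 FPKM with IL-27, and 16.4, 16.3 and 19.6 FPKM with IL-33 alone. The IFN-γ libraries of Traf6 lay within 1 FPKM of each other, and its groups overlapped. Against IL-33 alone, the log2 fold changes of Irak2 were 0.18 with IFN-γ and 0.06 with IL-27 (95% intervals -0.50 to 0.86 and -0.63 to 0.74). Those of Traf6 were -0.07 and 0.16 (95% intervals -0.49 to 0.35 and -0.26 to 0.58).

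**Figure D3:**
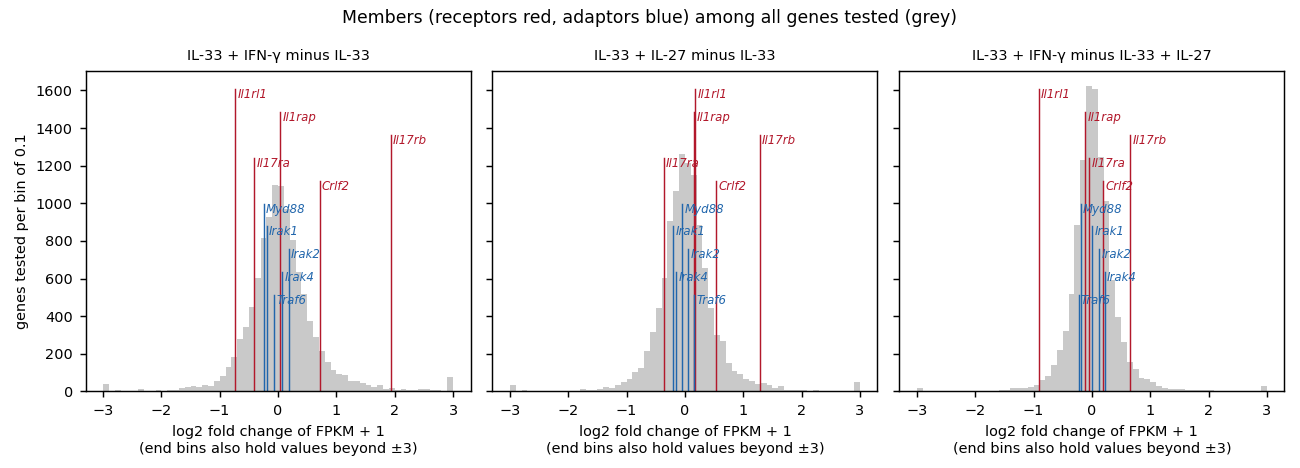
Number of genes tested in each bin of 0.1 of the log2 fold change (grey) in the 3 comparisons, the bins at either end also holding all genes beyond them, with lines at the values of the receptor genes (red) and adaptor genes (blue); line heights are set apart only for legibility. The adaptors lie in the central bulk in all panels, Il1rl1 lies on the left flank with IFN-γ, and Il17rb lies in the right tail with IFN-γ (1.93) and IL-27 (1.28).

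Around the members, 55 further genes of these pathways were examined in 7 lists (the ligands, other IL-1 and IL-17 receptors, their adaptors, TSLP signalling, enzymes downstream of Traf6, and inhibitors), of which the tables held 54 and 43 passed the filter. In the unblocked fit 1 of the 43 was higher and none lower with IFN-γ, where 2.19% of all genes tested were higher, and none was called with IL-27 against IL-33 alone or with IFN-γ against IL-27. The blocked fit called 6 higher and 1 lower with IFN-γ (6.51% and 4.66% of all genes) and 3 higher with IL-27 (3.37% of all genes), and 0 with IFN-γ against IL-27. The median log2 fold change of the 43 was 0.09 with IFN-γ and 0.17 with IL-27 (0.03 and 0.01 over all genes tested).

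The inhibitors of the pathway held most of these calls. The lists were chosen with earlier results of these data known, so these counts and medians are descriptive only. Unlike those of the members, the blocked calls of genes in these lists were not checked with each library left out. All 7 of the listed inhibitor genes were tested. Their median log2 fold change was 0.68 with IFN-γ and 0.48 with IL-27 (0.03 and 0.01 over all genes tested). In the unblocked fit 1 was called, with IFN-γ, where 2.19% of all genes tested were higher. That gene was Cyld, a deubiquitinase that removes the ubiquitin chains made by Traf6, with 40.2, 33.5 and 37.9 FPKM with IFN-γ, against 14.3, 19.5 and 21.8 FPKM with IL-33 alone. The groups did not overlap, and Cyld rose with IFN-γ by 0.98 on the log2 scale (SE 0.21, limma adjusted p = 0.0396 unblocked and 0.0103 blocked). The unblocked call was held only without IL-33 replicate 3 or IL-27 replicate 3 and lost with each other library left out (limma adjusted p 0.0412 to 0.132). With IL-27 Cyld had 27.9, 26.1 and 36.5 FPKM, also above every IL-33 library, with a log2 fold change of 0.68 that was not called (limma adjusted p = 0.264 unblocked and 0.0628 blocked).

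Tnfaip3, which encodes the ubiquitin-editing enzyme A20, had 70.3, 64.7 and 93.0 FPKM with IFN-γ, 81.0, 56.4 and 85.6 FPKM with IL-27, and 33.7, 22.5 and 49.8 FPKM with IL-33 alone. Every library with an added cytokine was above every IL-33 library. The log2 fold changes were 1.14 with IFN-γ and 1.10 with IL-27 (SE 0.29 each; limma adjusted p = 0.0765 and 0.164 unblocked, 0.00322 and 0.00614 blocked). Irak3, the kinase-dead family member that restrains Myd88 signalling, had 51.5, 75.6 and 118 FPKM with IFN-γ, 67.5, 96.4 and 118 FPKM with IL-27, and 35.7, 55.6 and 55.1 FPKM with IL-33 alone. The lowest IFN-γ library fell within the IL-33 range, and the IL-27 libraries lay above it. Its log2 fold changes were 0.68 and 0.92 (SE 0.32 each; limma adjusted p = 0.364 and 0.357 unblocked, 0.0213 and 0.00996 blocked).

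The blocked fit also called Tnip1 and Zc3h12a, inhibitors that were named after their values were seen. Tnip1, an A20-binding protein, had log2 fold changes of 0.59 with IFN-γ and 0.48 with IL-27 (limma adjusted p = 0.332 and 0.650 unblocked, 0.00788 and 0.0284 blocked). Zc3h12a, an RNase that degrades cytokine transcripts, had 0.68 with IFN-γ and 0.41 with IL-27 (limma adjusted p = 0.43 and 0.80 unblocked, 0.0296 and 0.187 blocked). For Tnip1 and Zc3h12a the libraries with either added cytokine overlapped those with IL-33 alone. Nfkbia, the gene for an NF-κB inhibitor, and Tollip were not called in either fit. Tollip, a protein that binds Irak1, differed by -0.58 on the log2 scale with IFN-γ and had 14.7, 23.9 and 29.6 FPKM with IFN-γ against 29.6, 35.4 and 34.9 FPKM with IL-33 alone.

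**Figure D4:**
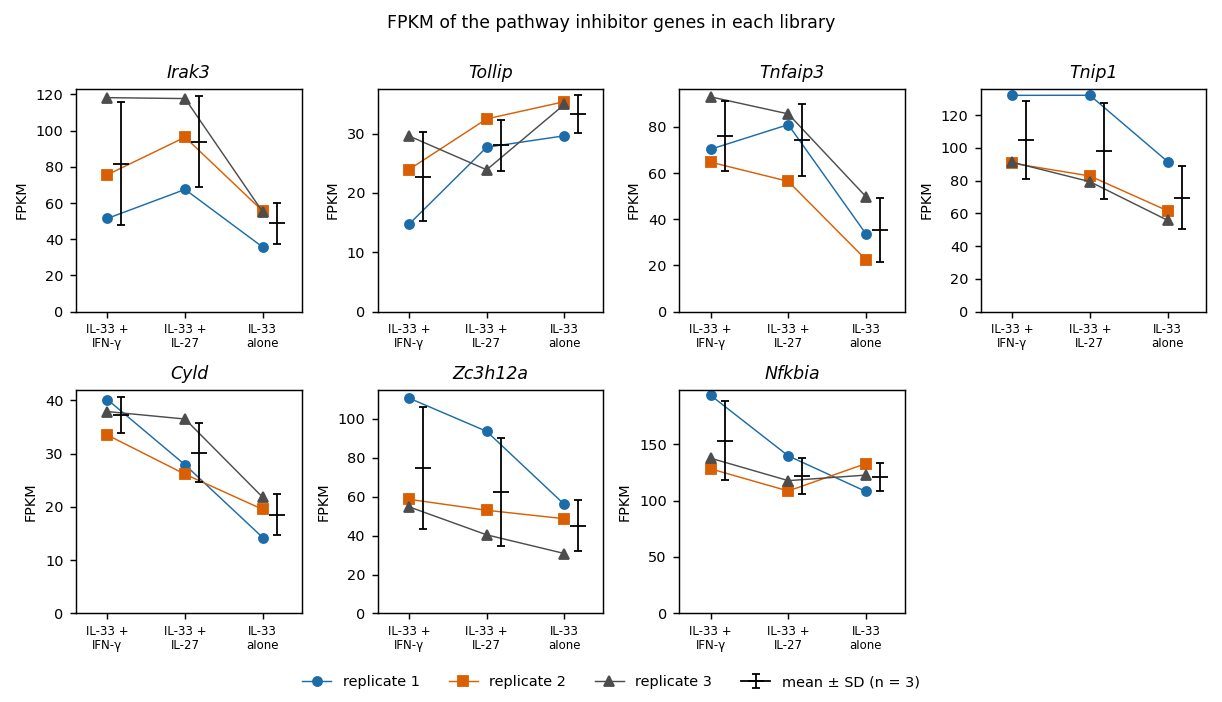
FPKM (vertical axes, each from 0) of the 7 listed pathway inhibitor genes in each library, by culture group. Points are libraries, lines join libraries of the same number, and bars give the mean ± SD of 3 libraries. Cyld and Tnfaip3 are above every IL-33 library with either added cytokine, whereas Tollip is lowest in the IFN-γ library of replicate 1 at 14.7 FPKM.

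Of the other lists, 2 genes were called in the blocked fit of IFN-γ, again named after their values were seen. Stat5a, a STAT that TSLP and IL-7 activate, had a log2 fold change of -0.81 (limma adjusted p = 0.0425 blocked and 0.225 unblocked), and Mapk9, which encodes a JNK kinase, had 0.47 (limma adjusted p = 0.0494 blocked and 0.221 unblocked). None of the 5 other tested members of the IL-1 receptor family was called in either fit, among them Il18r1, the IL-18 receptor chain, with log2 fold changes of 0.45 with IFN-γ and 0.13 with IL-27 (limma adjusted p = 0.624 and 0.956 unblocked). Neither was any of the 5 partners of the IL-17 receptors. One of them was Traf3ip2, the adaptor of the IL-25 receptor, with 18.4 ± 2.19 FPKM with IFN-γ, 20.8 ± 6.76 FPKM with IL-27 and 14.1 ± 3.82 FPKM with IL-33 alone (SD, n = 3 each). The ligand genes Il25 and Tslp were listed at 0 in all 9 libraries, and Il33 reached at most 1.77 FPKM.

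Over the 9 libraries, the genes whose pattern lay closest to each receptor gene were found from the root mean square difference of log2(FPKM + 1), each gene centred on its own mean. For Il1rl1 they were Cysltr1, a leukotriene receptor gene, Pparg, a nuclear receptor gene, and Gpr97, each at 0.15, where the median over all genes tested was 0.70. The closest, Cysltr1, had 10.3, 11.1 and 20.9 FPKM with IFN-γ, 17.4, 30.3 and 41.9 FPKM with IL-27, and 17.1, 22.3 and 44.0 FPKM with IL-33 alone, which like Il1rl1 is lowest with IFN-γ in each number and highest in replicate 3 of each group. For Crlf2 the closest were Galnt3 and Vim at 0.12 and Triobp at 0.13 (median 0.52). For Il17rb they were Oas1g (0.28), Trim12a (0.34) and C130026I21Rik (0.37) (median 1.10), and Oas1g and Trim12a have close paralogs, so that their values are uncertain. Il17ra lay closest to Tspan31 (0.10) and Med24 (0.13), and Il1rap to Hnrnph1, Usp22 and Nedd1 (0.13 each). The libraries share their replicate numbers and depth, so these likenesses describe the 9 libraries and were not tested.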

How the data were processed

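RNA sequencing of 9 mouse ILC2 libraries was analysed from 1 deposited table per library. The authors deposited 1 FPKM value per gene; the unit is inferred from Cufflinks being named and from the values. Per the submitters' processing notes, Bowtie2 2.1.0, TopHat2 2.0.8, Cufflinks 2.1.1 and mouse build mm9 were used, with roles, parameters and annotation not given in the sources used here. Low-abundance FPKM estimates depend on the authors' gene models and on how reads shared between paralogs were assigned. Replicate 3 tables hold 1 decimal, and 25 symbols had been turned into dates.

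Values were fitted as log2(FPKM + 1) for genes averaging 1 FPKM or more, in 1 model of all 3 groups, with limma 3.58.1 under R 4.3.3 (two-sided, moderated with an intensity trend). P-values were adjusted over all 11014 genes by the Benjamini-Hochberg method, with a threshold of 0.05. Intervals are limma's 95% intervals. The unblocked fit was tested on simulated data without a replicate effect, and the blocked fit was not tested in this way. The libraries' deviations from group means correlated at 0.128 to 0.367 for the 9 same-number pairs and at -0.298 to -0.0251 for the 18 others. Deviations within a group cancel out, so the negative values follow on average from the positive ones. From the same-number values, numbers were taken to pair libraries, and a fit with the replicate block is given where it changes a call. The labels do not state what equal numbers share.

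Members and lists were chosen with earlier results of these data known. All members were named, with every pathway gene called in the unblocked fit, 5 fixed pathway genes (Il7r, Il18r1, Traf3ip2, Irak3, Tnfaip3) and the 3 genes most like each receptor gene, of which 1 is not reported here. Gene positions are from GENCODE vM1 (mm9) and promoters from RefSeq. Depth was estimated from FPKM steps within a fixed window, with annotated lengths, and is approximate. Alternatives varied the pseudocount, filter, scaling, libraries and variance model. Other steps used Python 3.11.15 with pandas 2.3.3, numpy 2.4.6 and, for figures, matplotlib 3.10.9.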

Additional observations from a re-analysis of the deposited data

How the results depend on the processing

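Of the member fold changes, none was past the threshold in the unblocked fit under any pseudocount, filter or scaling. The size of the Il17rb log2 fold change depended on the pseudocount, being 2.36 at 0.5 and 3.25 at 0.1 in place of 1.93 with IFN-γ, and 1.63 and 2.44 in place of 1.28 with IL-27, and the block was not run with these pseudocounts. The block left the fold changes as they were and changed calls. With the block, 3 members (in place of 0) were called with IFN-γ against IL-33 alone, and with 1 library also left out 2 or 3, so that members called ranged from 0 to 3 over all omissions. With replicates 1 and 2 only and the block it was 2. IFN-γ against IL-27 gave 1 member with the block, which changed the call of no other member, and the pathway lists gave 7 calls in place of 1 with IFN-γ and 3 in place of 0 with IL-27. Under the same pairing, genes called numbered 1230 in place of 320 with IFN-γ, 567 in place of 113 with IL-27 and 20 in place of 0 with IFN-γ against IL-27.

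Fitting only the 2 groups compared gave 187 genes with IFN-γ and 63 with IL-27. Replicates 1 and 2 only gave 125 genes with IFN-γ and 53 with IL-27, and with the block 302 and 96. For IFN-γ against IL-27, 2 genes were called with replicates 1 and 2 only, with or without the block, and also without a filter and without an intensity trend. Leaving out single libraries gave 157 to 299 genes with IFN-γ, 42 to 122 with IL-27 and 0 to 2 with IFN-γ against IL-27. The omissions and the fits of fewer groups or replicates use fewer libraries; the cause of the other changes was not tested. The unblocked call of Cyld was lost with only the 2 groups compared (limma adjusted p = 0.0833) and without an intensity trend (0.0578). With replicates 1 and 2 only, Cyld was not called without the block (limma adjusted p = 0.111) or with it (0.0797). With a minimum mean of 5 FPKM, Il17rb and Il1rap were not tested.

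A change of sign occurred for 49 values of 12 results, 38 of them on leaving out a library, and 0 were past the threshold. Over the omissions in the unblocked fit, the log2 fold change ranged, for IFN-γ against IL-33 alone, from -0.057 to 0.096 (Il1rap) and -0.11 to 0.013 (Traf6). For IL-27 against IL-33 alone it ranged from -0.17 to 0.50 (Il1rl1), -0.10 to 0.305 (Irak2), -0.42 to 0.037 (Irak4) and -0.19 to 0.061 (Myd88). For IFN-γ against IL-27 it ranged from -0.25 to 0.17 (Il17ra), -0.40 to 0.023 (Il1rap), -0.11 to 0.16 (Irak1) and -0.10 to 0.31 (Irak2). In the blocked fit with a library left out, changes of sign gave, for IFN-γ against IL-33 alone, -0.049 and -0.10 (Il1rap), -0.028 and -0.11 (Irak2), -0.038 and -0.048 (Irak4) and 0.023 (Traf6). For IL-27 against IL-33 alone they gave -0.24 and -0.024 (Irak2) and 0.041 (Myd88). For IFN-γ against IL-27 they gave 0.11 and 0.079 (Il17ra), 0.019 and 0.011 (Il1rap), -0.031, -0.026 and -0.041 (Irak1) and -0.084 (Irak2). With replicates 1 and 2 only, with or without the block, the log2 fold change was 0.14 for Il17ra and -0.014 for Irak1 (IFN-γ against IL-27), -0.0053 for Il1rap and 0.0042 for Traf6 (IFN-γ against IL-33 alone). Scaling to medians gave -0.013 for Il1rap (IFN-γ against IL-33 alone) and -0.0061 for Irak1 (IFN-γ against IL-27), for which upper quartiles gave -0.0032. Scaling moved the median of all genes by less than 0.1. Depth limits Il17rb, Il1rap and Irak4 most, which rest on an estimated 28 or fewer fragments a library. Crlf2 also rests on modest numbers, an estimated 49, 72 and 78 fragments with IFN-γ and 30, 43 and 46 with IL-33 alone.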
